A study of Mus musculus with 12 samples.

Results

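Proliferation and replication genes were followed, in mouse dorsal root ganglia of segments L4 to L6, as a set of 34 genes chosen by symbol. All 34 were found among the 44345 gene symbols of the RNA count files, and all 34 passed the filter on low counts that left 16819 genes for testing. The set holds 20 genes of mitosis and 14 genes of DNA replication and S phase entry. The RNA came from 3 libraries of mice given MS275 (also called entinostat, which blocks class I histone deacetylases; 12 mg/kg into the peritoneum) and 3 libraries of mice given the vehicle (Tween80, PEG300 and DMSO). Each library pooled the ganglia of 2 mice. All mice were C57BL/6, aged 6 to 8 weeks, and all had their spinal dorsal columns cut (dorsal column axotomy) 24 h before the tissue was taken; injections were given at the injury and again 2 h before sacrifice. No uninjured ganglia were compared, so the values below describe the drug in injured animals and not the injury. Open chromatin (ATAC-seq) was available as 1 peak list per treatment, combined by the authors over 3 mice each. RNA libraries held 34992533 to 60370523 reads assigned to genes, and the sensory neuron markers Tubb3, Prph and Nefh stood at 2063 CPM or more in each of the 6. CPM are counts per 1000000 assigned reads, scaled between libraries by TMM.

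A cell that commits to division first switches on genes for DNA replication, when E2F transcription factors are released from the retinoblastoma protein. Later, in G2 phase, B-MYB, FOXM1 and the MuvB complex switch on the genes of mitosis through a promoter element called the cell cycle genes homology region, usually placed just downstream of CCAAT boxes bound by NF-Y. The p53 target p21 (Cdkn1a) can hold both waves off through the DREAM complex, and histone deacetylase inhibitors are known to induce it in cultured cells. Sensory neurons of adult ganglia do not divide; the satellite glia, Schwann cells, macrophages, endothelial cells and fibroblasts around them can. In whole ganglia, fewer cycling cells and less of a transcript in each of them cannot be told apart.

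A few promoters of the set are printed because they show the letters by which the mitosis and replication genes differed; these 6 were chosen after the matches had been seen. Promoters were taken from RefSeq (build GRCm38.p6), from 250 bases before to 50 bases after the annotated start, in the direction of the gene; 29 of the 34 genes had an entry. Capitals mark matches on either strand to TTTGAA or TTTAAA (the cell cycle genes homology region), CCAAT, or any of the E2F letters TTTCCCGC, TTTGGCGC, TTTCGCGC, TTTGCCGC, TTCCCGCC and TTGGCGCC, some of which overlap each other where they meet. Ccnb2 (chr9:70421505-70421804, minus strand) has CCAAT 3 times between a distant TTTGAA and another just past its start, and Cdc20 (chr4:118437294-118437593, minus strand) and Ube2c (chr2:164769679-164769978, plus strand) also have CCAAT and TTTGAA. Mcm3 (chr1:20820263-20820562, minus strand), Mcm6 (chr1:128359656-128359955, minus strand) and Cdc6 (chr11:98907901-98908200, plus strand) have E2F letters in place of TTTGAA. The Cdc6 window lies at a start inside the gene, whose annotated outer end is at base 98907709. The bases at and before that outer end of Cdc6 were not searched.
Ccnb2: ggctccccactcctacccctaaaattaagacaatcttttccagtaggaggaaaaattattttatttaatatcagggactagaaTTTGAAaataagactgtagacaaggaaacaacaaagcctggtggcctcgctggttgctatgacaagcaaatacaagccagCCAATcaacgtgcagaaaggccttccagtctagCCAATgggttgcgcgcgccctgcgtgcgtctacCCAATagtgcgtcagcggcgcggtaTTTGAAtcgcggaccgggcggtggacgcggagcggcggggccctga
Cdc20: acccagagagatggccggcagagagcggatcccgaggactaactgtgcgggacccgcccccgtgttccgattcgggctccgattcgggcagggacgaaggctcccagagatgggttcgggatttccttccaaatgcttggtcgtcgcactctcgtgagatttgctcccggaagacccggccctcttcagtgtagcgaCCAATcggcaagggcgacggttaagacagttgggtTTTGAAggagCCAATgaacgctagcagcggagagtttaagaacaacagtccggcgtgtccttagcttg
Ube2c: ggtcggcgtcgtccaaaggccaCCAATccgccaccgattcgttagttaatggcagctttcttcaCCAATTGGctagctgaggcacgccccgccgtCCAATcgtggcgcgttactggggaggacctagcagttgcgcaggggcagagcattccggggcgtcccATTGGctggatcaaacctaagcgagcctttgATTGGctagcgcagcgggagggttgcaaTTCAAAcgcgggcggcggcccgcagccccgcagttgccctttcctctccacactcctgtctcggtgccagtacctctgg
Mcm3: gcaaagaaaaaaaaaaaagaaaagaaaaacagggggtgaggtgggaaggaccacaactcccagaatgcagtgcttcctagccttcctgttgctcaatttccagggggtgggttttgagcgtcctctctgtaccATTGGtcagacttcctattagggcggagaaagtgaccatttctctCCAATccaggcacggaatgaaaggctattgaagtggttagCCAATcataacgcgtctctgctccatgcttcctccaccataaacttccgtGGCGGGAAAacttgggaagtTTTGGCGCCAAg
Mcm6: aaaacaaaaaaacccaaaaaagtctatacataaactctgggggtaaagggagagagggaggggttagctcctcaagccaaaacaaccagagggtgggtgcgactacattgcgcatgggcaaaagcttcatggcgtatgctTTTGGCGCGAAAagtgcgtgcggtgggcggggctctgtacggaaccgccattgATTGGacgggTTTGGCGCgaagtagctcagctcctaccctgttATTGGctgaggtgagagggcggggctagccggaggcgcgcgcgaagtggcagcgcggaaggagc
Cdc6: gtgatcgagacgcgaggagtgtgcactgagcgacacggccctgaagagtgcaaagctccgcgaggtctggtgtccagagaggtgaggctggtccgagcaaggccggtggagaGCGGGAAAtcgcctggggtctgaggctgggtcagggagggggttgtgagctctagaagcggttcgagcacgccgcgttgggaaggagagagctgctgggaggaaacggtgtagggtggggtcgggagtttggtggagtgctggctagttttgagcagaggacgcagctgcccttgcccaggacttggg

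TTTGAA or TTTAAA was found in 15 of 17 mitosis genes with a promoter entry (88.2%) and in 5 of 12 replication genes (41.7%), against 22.9% of the tested genes with an entry and 30.6% of all 27025 genes in the table. Split by letters, a step chosen after the matches had been seen, 13 of 17 mitosis genes (76.5%) held TTTGAA, against 1 of 12 replication genes (8.33%), 14.3% of the tested genes and 20.2% of all. TTTAAA, which reads the same on both strands, was found in 5 of 17 and 4 of 12, against 14.9% of all. E2F letters ran the other way: 2 of 17 mitosis genes (Ccnb1 and Cdk1) and 6 of 12 replication genes (Mcm3, Mcm5, Mcm6, Mcm7, Rrm1 and Cdc6) held them, against 8.52% of the tested genes and 5.11% of all. CCAAT, a common pentamer present in 41.1% of all promoters, was found in 15 of 17 and 8 of 12. Further genes of the same 2 processes had similar shares: 22 of 29 other mitosis genes (75.9%) held TTTGAA and 3 of 29 held E2F letters, while 6 of 37 other replication genes (16.2%) held TTTGAA and 19 of 37 (51.4%) held E2F letters. A match is a string of letters and not a bound site, and the absence of one says only that it is not in these 300 bases.

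**Figure D1:**
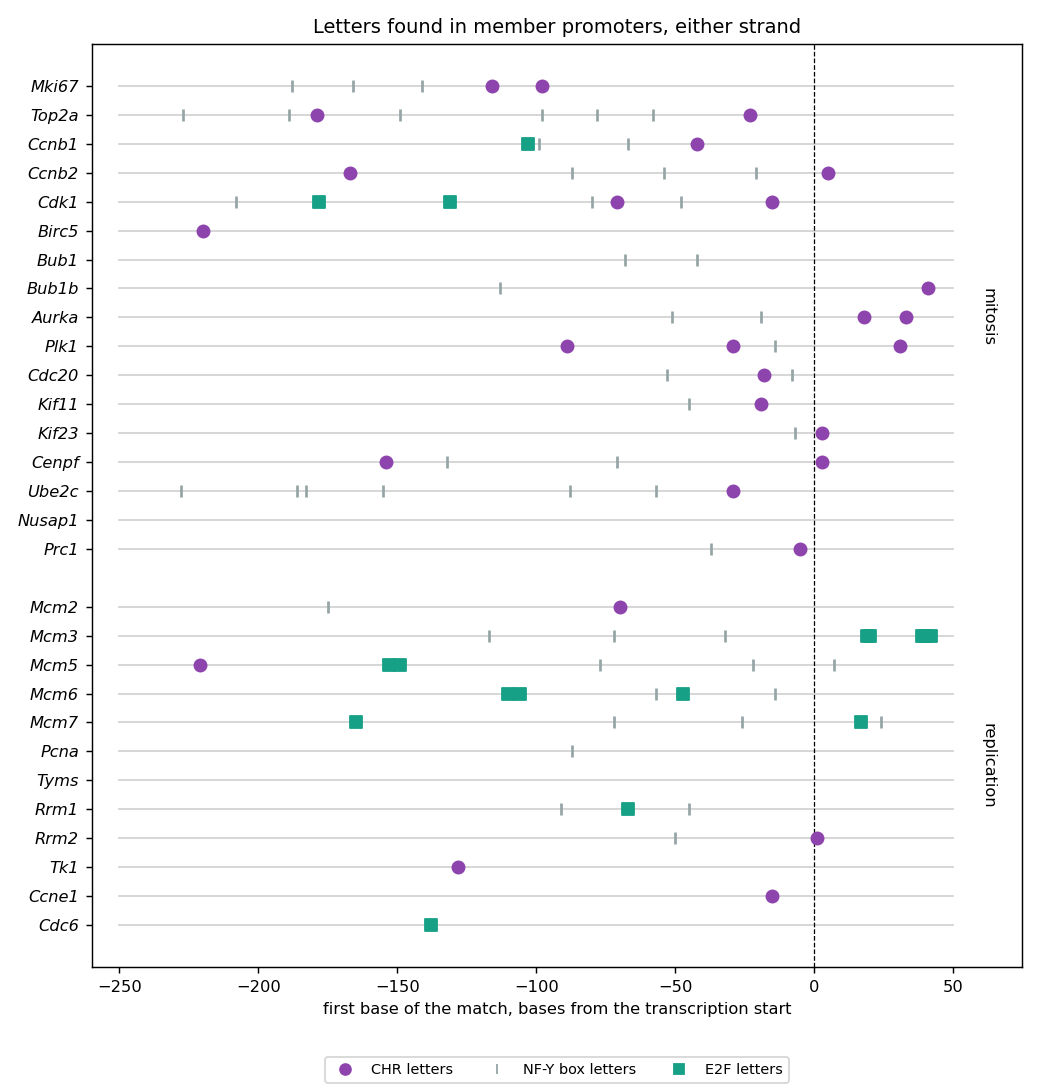
Positions of letter matches in the promoters of 17 mitosis genes (upper rows) and 12 replication genes (lower rows), in bases from the annotated transcription start (dashed line); each symbol is the first base of a match on either strand and grey ticks are CCAAT. For Mcm7 and Prc1, which have 2 annotated starts, the first in the table is drawn; purple symbols lie in 15 of 17 upper rows and green squares in 2 of them, against 5 and 6 of the 12 lower rows.

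An open region lay within 1000 bp of the start in 29 of 29 members with a placed start in the MS275 list and in 29 of 29 in the vehicle list, against 90.4% and 91.2% of 11578 tested genes with a placed start. For the 5 genes without a promoter entry (Mcm4, Aurkb, Ccna2, Ccne2 and Tpx2) a region within 1000 bp of either end of the gene was counted, which makes 34 of 34 in each list. The strongest such region of Aurkb lay at opposite ends of the gene in the 2 lists, so an open start in both is not shown for it. The regions were 421 to 2176 bp wide in the MS275 list and 533 to 2172 bp wide in the vehicle list. Tk1 (thymidine kinase) had the weakest region of the set in each list, with a fold enrichment given by the authors of 1.65 in the MS275 list and 1.69 in the vehicle list. The strongest lay at Cenpf in the MS275 list (10.6) and at Mcm3 in the vehicle list (10.9). The lists pool their replicates and differ in length, so a difference in fold between them has no test.

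The transcripts were compared between MS275 and vehicle with edgeR's quasi-likelihood test on all genes, with Benjamini-Hochberg adjustment and a threshold of 0.05. None of the 34 members passed: 0 were called higher and 0 lower, where the same test called 11.0% of all tested genes (5.10% higher and 5.89% lower). At an unadjusted p under 0.05 there were 2 of 34 members (5.88%), Mcm3 and Mcm4, beside 28.5% of all genes; limma voom called 0 members, against 10.6% of all genes, and DESeq2 called 1 of the 33 members to which it gave an adjusted p, Mcm4, against 13.8%. The smallest adjusted p in edgeR's test was 0.0587. Of the 34, 2 lay higher in every MS275 library than in any vehicle library and 6 lay lower, against 15.9% and 17.9% of all genes. The 2 processes differed in how precisely they were measured. The 95% interval of the change stayed within 2-fold in either direction for 10 of 20 mitosis genes and for 13 of 14 replication genes, and within 1.5-fold for 5 and 8.

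The general proliferation markers varied widely between MS275 libraries, and neither passed the test. A larger spread with MS275 was not particular to them. Of all tested genes, 68.9% had a larger SD of log2(CPM + 0.5) with MS275 than with vehicle. The share was 80% of mitosis and 78.6% of replication members. Mki67, the antigen Ki-67 that coats mitotic chromosomes, had 5.91, 1.51 and 2.64 CPM in MS275 replicates 1, 2 and 3, against 2.06, 2.57 and 1.97 CPM in vehicle replicates 1, 2 and 3. The Mki67 means were 3.35 ± 2.29 CPM with MS275 and 2.20 ± 0.326 CPM with vehicle (SD, n = 3 each), with a log2 fold change of 0.60 (SE 0.41, adjusted p = 0.364 in edgeR's quasi-likelihood test). Top2a, the topoisomerase that untangles sister chromatids, had 3.18, 0.728 and 1.16 CPM in MS275 replicates 1, 2 and 3, against 1.01, 1.28 and 0.933 CPM in vehicle replicates 1, 2 and 3. In both genes MS275 replicate 1 stood above every other library and MS275 replicate 2 below every other, so the groups overlapped. That first library held 2.69 times the vehicle mean of Mki67 and 2.96 times that of Top2a. Left out, the log2 fold change became -0.13 for Mki67 and -0.24 for Top2a (SE 0.24 and 0.27), with the opposite sign.

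The mitotic cyclins and their kinase gave wide intervals. Ccna2, the S and G2 phase cyclin, had 2.97, 1.02 and 0.985 CPM in MS275 replicates 1, 2 and 3, against 1.51, 1.43 and 1.31 CPM in vehicle replicates 1, 2 and 3. Its log2 fold change was 0.24 (SE 0.39) with all libraries and -0.49 (SE 0.21) without MS275 replicate 1. Ccnb1, cyclin B1, was counted in 25, 17 and 13 reads in MS275 replicates 1, 2 and 3, against 11, 26 and 6 reads in vehicle replicates 1, 2 and 3. Its log2 fold change was 0.49 (95% interval -0.44 to 1.43). Ccnb2, cyclin B2, and Cdk1, the kinase that both activate, had log2 fold changes of 0.06 (SE 0.44) and 0.00 (SE 0.41). Ccna2 shares its locus with Exosc9 in the annotation, and how reads of overlapping genes were split is not known.

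None of the mitotic kinases and checkpoint genes passed, and their values lay on both sides of vehicle. Aurka, the Aurora kinase of centrosomes, had 3.93, 4.02 and 2.95 CPM in MS275 replicates 1, 2 and 3, against 4.53, 4.44 and 4.59 CPM in vehicle replicates 1, 2 and 3, so the groups did not overlap. The Aurka means were 3.64 ± 0.592 CPM with MS275 and 4.52 ± 0.0765 CPM with vehicle (SD, n = 3 each), with a log2 fold change of -0.31 (SE 0.14, adjusted p = 0.177 in edgeR's quasi-likelihood test). Bub1, a spindle checkpoint kinase, lay higher with MS275, again without overlap: it had 1.88, 2.18 and 1.82 CPM in MS275 replicates 1, 2 and 3, against 1.79, 1.61 and 1.67 CPM in vehicle replicates 1, 2 and 3. Its log2 fold change was 0.22 (SE 0.16, adjusted p = 0.388). Its partner Bub1b (BubR1) had 0.08 (SE 0.17) and Plk1, Polo-like kinase 1, 0.29 (SE 0.37). Aurkb, the kinase of the chromosomal passenger complex, was represented by 16, 3 and 12 reads in MS275 replicates 1, 2 and 3, against 10, 21 and 9 reads in vehicle replicates 1, 2 and 3, and nothing about it can be resolved at this depth. Birc5 (survivin), which sits in the same complex, had -0.21 (SE 0.20).

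Both anaphase genes of the set missed the threshold. Cdc20, the activator of the anaphase-promoting complex, had 0.878, 0.837 and 0.869 CPM in MS275 replicates 1, 2 and 3, against 1.01, 1.21 and 0.933 CPM in vehicle replicates 1, 2 and 3. These 3 MS275 values lay close together and under all vehicle values, with a log2 fold change of -0.30 (SE 0.21, adjusted p = 0.377 in edgeR's quasi-likelihood test). They rest on 42, 46 and 30 reads, against 46, 74 and 37 reads in vehicle replicates 1, 2 and 3. At such counts their closeness says little. Ube2c, the ubiquitin-conjugating enzyme of the anaphase-promoting complex, had 1.48, 0.309 and 0.348 CPM in MS275 replicates 1, 2 and 3, against 0.591, 0.639 and 0.555 CPM in vehicle replicates 1, 2 and 3. Its reads were 71, 17 and 12 in the MS275 libraries, against 27, 39 and 22 in the vehicle libraries. MS275 replicate 1 held 2.49 times the vehicle mean, while the other MS275 libraries lay under every vehicle library; without it the log2 fold change went to -0.87 (SE 0.32, adjusted p = 0.108), against 0.27 with it.

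Among spindle genes, none of which passed the test, Prc1, which bundles the microtubules of the central spindle, had 3.39, 3.18 and 3.19 CPM in MS275 replicates 1, 2 and 3, against 3.74, 3.80 and 3.99 CPM in vehicle replicates 1, 2 and 3. The Prc1 means were 3.25 ± 0.116 CPM with MS275 and 3.84 ± 0.128 CPM with vehicle (SD, n = 3 each), with a log2 fold change of -0.24 (SE 0.11, adjusted p = 0.203 in edgeR's quasi-likelihood test). The groups did not overlap, nor did they for Tpx2, a spindle assembly factor, which had 3.89, 3.77 and 3.79 CPM in MS275 replicates 1, 2 and 3, against 3.15, 3.37 and 3.73 CPM in vehicle replicates 1, 2 and 3. Tpx2 lay on the higher side (log2 fold change 0.16, SE 0.12, adjusted p = 0.414). The mitotic kinesins Kif11 and Kif23 had log2 fold changes of -0.18 (SE 0.15) and 0.19 (SE 0.19). The kinetochore gene Cenpf had 0.09 (SE 0.41) and the spindle gene Nusap1 0.02 (SE 0.45); both were highest in MS275 replicate 1. Aurka, Cdc20 and Prc1 overlap Cstf1, Elovl1 and Rccd1 in the annotation, and Nusap1 overlaps Oip5, so reads may be shared or lost there.

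**Figure D2:**
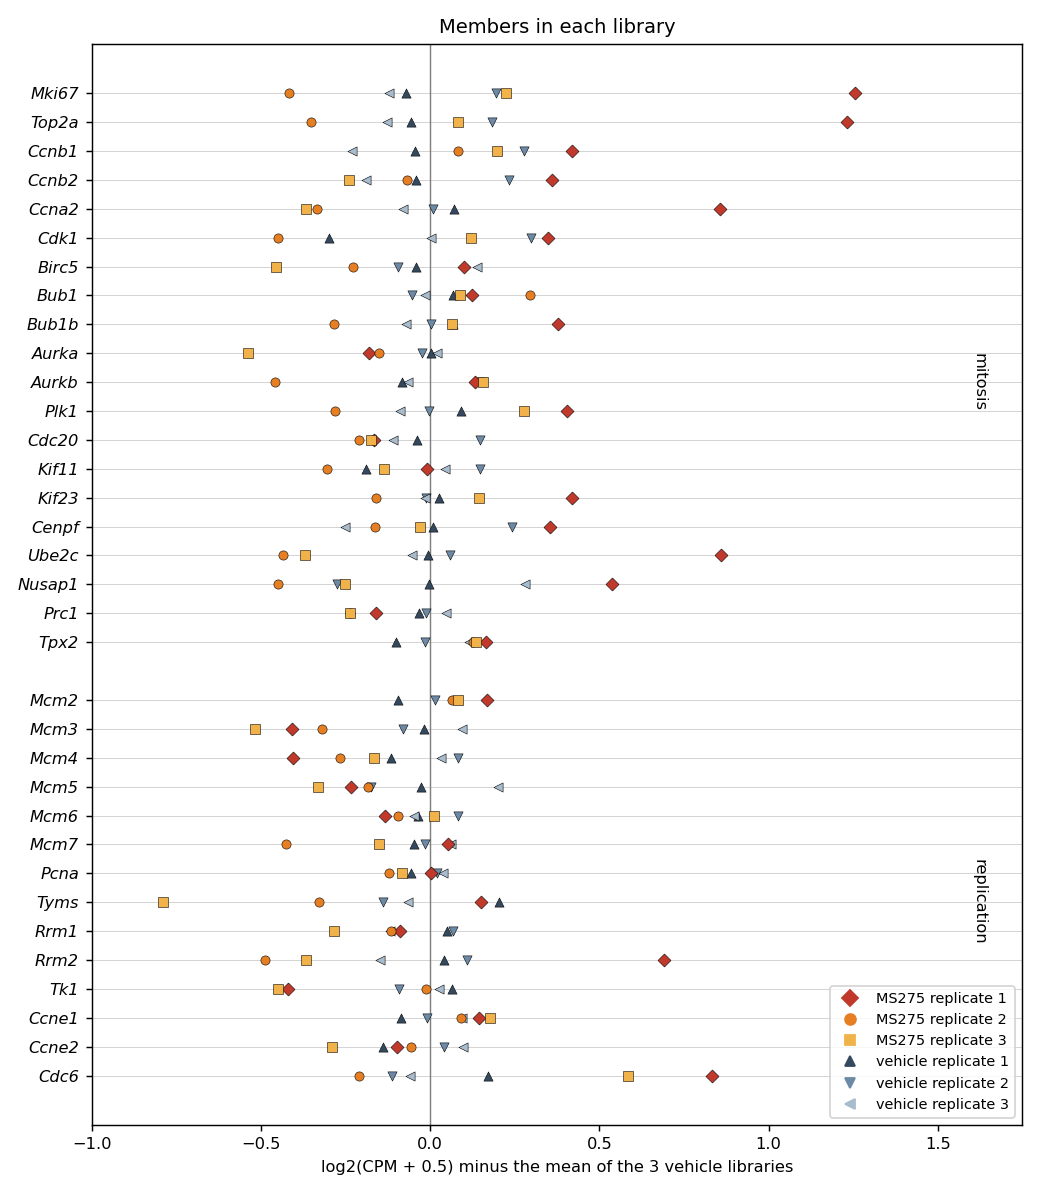
Each of the 34 genes in each of the 6 libraries, as log2(CPM + 0.5) minus the mean of the 3 vehicle libraries (horizontal axis); warm colours are MS275 and blue-grey colours are vehicle libraries. MS275 replicate 1 (red diamonds) is the highest library for 13 of 20 mitosis genes and 3 of 14 replication genes.

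Among the replication genes, Mcm4 and Mcm3 had the lowest adjusted p. Mcm2 to Mcm7 form the ring-shaped helicase that opens DNA at replication origins. Mcm3 had 1.63, 1.77 and 1.48 CPM in MS275 replicates 1, 2 and 3, against 2.30, 2.18 and 2.52 CPM in vehicle replicates 1, 2 and 3, lower in every MS275 library. The Mcm3 means were 1.624 ± 0.144 CPM with MS275 and 2.33 ± 0.175 CPM with vehicle (SD, n = 3 each), with a log2 fold change of -0.51 (SE 0.16, adjusted p = 0.0635 in edgeR's quasi-likelihood test). Mcm4 had 12.3, 13.6 and 14.6 CPM in MS275 replicates 1, 2 and 3, against 15.2, 17.5 and 16.9 CPM in vehicle replicates 1, 2 and 3, and again the groups did not overlap. The Mcm4 means were 13.5 ± 1.15 CPM with MS275 and 16.5 ± 1.19 CPM with vehicle (SD, n = 3 each), with a log2 fold change of -0.29 (SE 0.09, adjusted p = 0.0587 in edgeR's quasi-likelihood test). Mcm5 also lay lower without overlap (-0.28, SE 0.14, adjusted p = 0.220). Of the other subunits of the same ring, Mcm2 had a log2 fold change of 0.11 (SE 0.09), Mcm6 -0.08 (SE 0.08) and Mcm7 -0.17 (SE 0.13). For Mcm2 and Mcm6 the intervals, -0.10 to 0.32 and -0.26 to 0.11, hold no change as large as 1.5-fold. Mcm7 contains the microRNA genes Mir106b, Mir93 and Mir25 in an intron and overlaps Ap4m1. MS275 replicate 1 was the highest library for Mcm2 but not for Mcm3 to Mcm7, and without it Mcm3 and Mcm4 had log2 fold changes of -0.50 and -0.23 (adjusted p = 0.0922 and 0.106).

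Pcna, the sliding clamp of DNA polymerases, is also used in DNA repair by cells that do not divide. It had 37.1, 33.98 and 34.9 CPM in MS275 replicates 1, 2 and 3, against 35.6, 37.5 and 38.02 CPM in vehicle replicates 1, 2 and 3, a log2 fold change of -0.07 with an interval of -0.19 to 0.05, and the groups overlapped. None of the nucleotide supply genes passed. Rrm1, the large subunit of ribonucleotide reductase, had -0.17 (SE 0.08), whereas Rrm2, its S phase subunit, had 2.65, 0.892 and 1.01 CPM in MS275 replicates 1, 2 and 3, against 1.51, 1.61 and 1.26 CPM in vehicle replicates 1, 2 and 3. As for Ube2c, MS275 replicate 1 was highest and the other MS275 libraries lay under all vehicle libraries. Its log2 fold change was 0.06 with all libraries and -0.63 without that one (adjusted p = 0.0918). Tyms, thymidylate synthase, had -0.34 (SE 0.29) and became -0.69 without it (adjusted p = 0.0938).

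Tk1, thymidine kinase 1, had 3.24, 4.46 and 3.16 CPM in MS275 replicates 1, 2 and 3, against 4.72, 4.19 and 4.59 CPM in vehicle replicates 1, 2 and 3. MS275 replicate 2 lay among the vehicle values and the other MS275 libraries under them. The change of -0.31 (SE 0.15, adjusted p = 0.219) became -0.48 and passed (adjusted p = 0.0393 in edgeR's quasi-likelihood test) without MS275 replicate 2. Cdc6, which loads the MCM helicase onto origins, had 1.505, 0.473 and 1.19 CPM in MS275 replicates 1, 2 and 3, against 0.766, 0.541 and 0.580 CPM in vehicle replicates 1, 2 and 3. Its change of 0.73 (SE 0.39, adjusted p = 0.253) became 1.12 without MS275 replicate 2 and passed (adjusted p = 0.0254), but 0.34 without replicate 1 (adjusted p = 0.619). Tk1 and Cdc6 were the 2 of 34 members called without MS275 replicate 2, where 16.1% of all genes were called. The cyclins E, which start S phase, had log2 fold changes of 0.14 (Ccne1, SE 0.07) and -0.16 (Ccne2, SE 0.13). Tk1 overlaps Afmid and Ccne2 overlaps Ints8 in the annotation.

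Set side by side, neither process had a member past the test. The median log2 fold change was 0.08 over the 20 mitosis genes and -0.17 over the 14 replication genes, beside 0.00 over all tested genes, and 6 of 20 and 10 of 14 had a negative sign, beside 49.5% of all genes. Library by library, the median mitosis gene stood at 0.36, -0.26 and 0.02 in MS275 replicates 1, 2 and 3 relative to the vehicle mean (log2 of CPM + 0.5), against -0.04, 0.03 and -0.06 in vehicle replicates 1, 2 and 3. The median replication gene stood at -0.04, -0.15 and -0.23 in the MS275 libraries, against -0.03, 0.00 and 0.04 in the vehicle libraries. So the MS275 libraries lay on both sides of vehicle for the mitosis members and at or under it for the replication members. This contrast was smaller in the further genes of each process. The median log2 fold change was -0.01 over 33 other mitosis genes and -0.04 over 45 other replication genes. In MS275 replicates 1, 2 and 3 the median other mitosis gene stood at 0.16, -0.10 and -0.21. The median other replication gene stood at 0.04, -0.07 and -0.06. MS275 replicate 1 was the highest library for 16 of 34 members, beside 22.9% of all genes, and MS275 replicate 2 was under every vehicle library for 15 of 20 mitosis genes and 9 of 14 replication genes, beside 33.6% of all genes. MS275 replicate 3 was under every vehicle library for 7 of 20 mitosis genes and 10 of 14 replication genes, beside 37.2% of all genes.

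MS275 replicate 1 was named for leaving out when the genes were chosen, with earlier results of these data known. It was the highest library for 13 of 20 mitosis and 3 of 14 replication genes, and leaving it out lowers such genes by construction. Leaving it out changed the sign of 11 of 20 mitosis genes and 1 of 14 replication genes, beside 11.3% of all tested genes. This contrast is no separate support, and the range over each library left out is given at the end. In the 2 against 3 libraries that remained, 17 of 20 mitosis and 11 of 14 replication genes had a negative sign, beside 49.7% of all genes, and the medians were -0.29 and -0.21. The mitosis minus replication difference was 0.25 with all libraries and -0.09 without MS275 replicate 1. Again none of the 34 passed in edgeR's quasi-likelihood test, where 11.0% of all genes did (5.43% higher and 5.59% lower); 9 of 34 members (26.5%) had an unadjusted p under 0.05, close to the 27.9% of all genes, and the lowest adjusted p was 0.0918. No sign or median here has a test of its own.

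**Figure D3:**
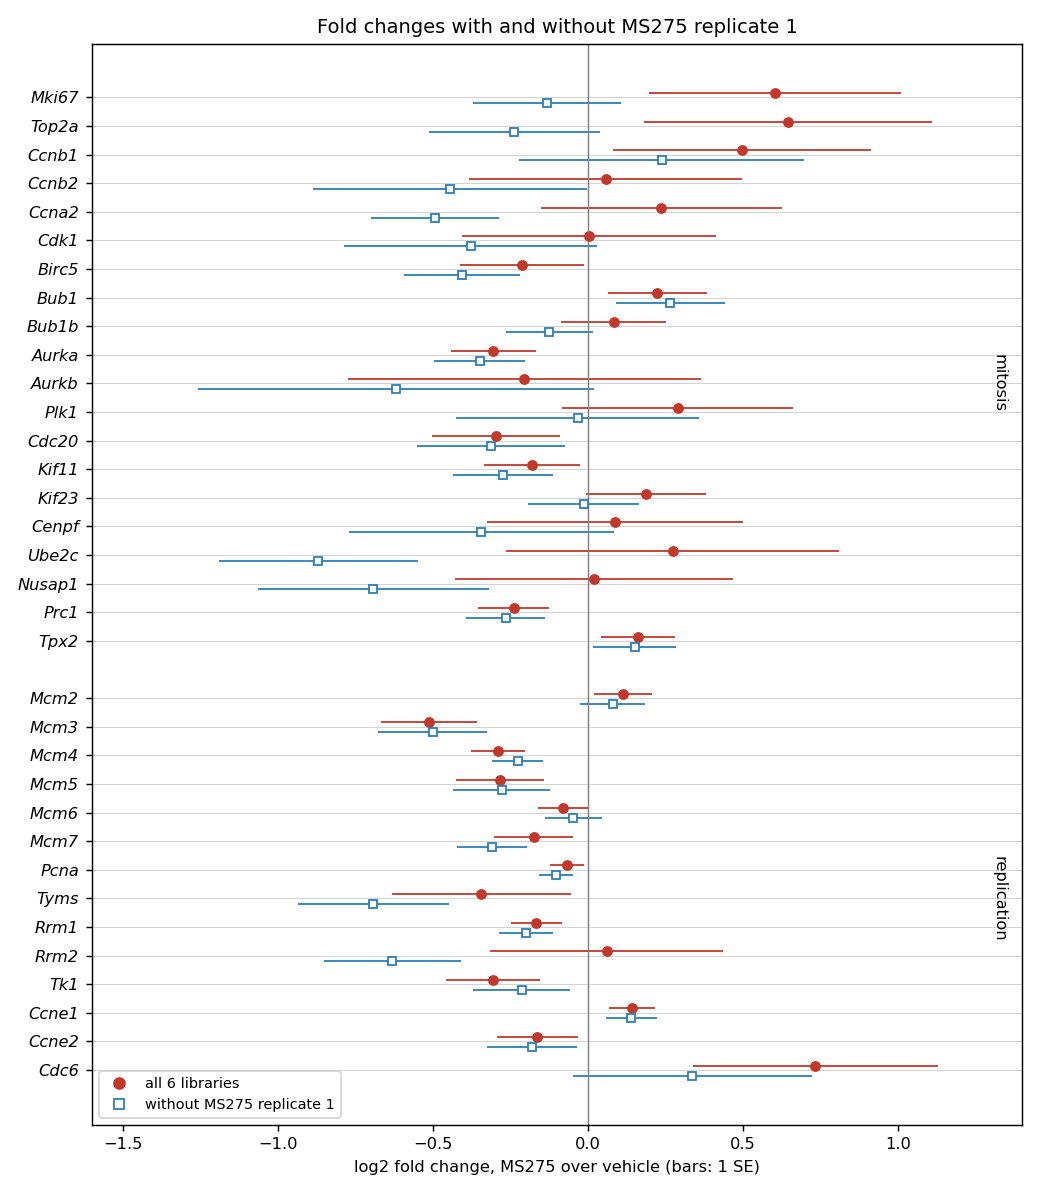
Fitted log2 fold change of MS275 over vehicle for each gene with all 6 libraries (red circles) and without MS275 replicate 1 (open blue squares); bars are 1 SE. Mitosis genes such as Ube2c, Nusap1 and Top2a move across 0, while Mcm3, Mcm4 and Mcm5 stay on the same side.

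Several marker lists of other cells were highest in MS275 replicate 1. Of 7 bone marrow granulocyte precursor genes 6 could be tested (Elane, Mpo, Prtn3, Ctsg, Ms4a3 and Chil3), and their summed level was 57.7, 13.5 and 19.3 CPM in MS275 replicates 1, 2 and 3, against 14.2, 13.1 and 10.4 CPM in vehicle replicates 1, 2 and 3. Elane, neutrophil elastase, made early in granulocyte development, had 4.64, 0.637 and 0.956 CPM in MS275 replicates 1, 2 and 3, against 0.437, 0.377 and 0.202 CPM in vehicle replicates 1, 2 and 3, and was the 1 of the 6 to pass (adjusted p = 0.0494 with all libraries and 0.0662 without MS275 replicate 1). That call was also lost without MS275 replicate 3 or any vehicle library and in limma voom (0.0614 to 0.152), and at a mean of at least 1 CPM (0.0523). Over all genes 5.10% were called higher. Of the 6 precursor genes 5 were highest in MS275 replicate 1, and Chil3 alone gave 33.6 CPM of its sum. Ms4a3 had 4.14, 4.15 and 5.24 CPM in MS275 replicates 1, 2 and 3. In vehicle replicates 1, 2 and 3 Ms4a3 had 4.64, 4.85 and 4.74 CPM (log2 fold change -0.08). The summed level of 10 neutrophil genes, led by S100a9, S100a8 and Ngp, was 277, 50.5 and 83.6 CPM in MS275 replicates 1, 2 and 3, against 75.7, 69.2 and 46.04 CPM in vehicle replicates 1, 2 and 3, and 0 passed. For 6 erythroid genes, led by Hba-a1, Hba-a2 and Alas2, it was 159, 33.1 and 50.7 CPM in MS275 replicates 1, 2 and 3, against 66.9, 56.1 and 66.7 CPM in vehicle replicates 1, 2 and 3. Of these 0 passed with all libraries and 3 were called lower without MS275 replicate 1, beside 5.59% of all genes in that setting. For 9 skeletal muscle genes it was 589, 78.7 and 88.9 CPM in MS275 replicates 1, 2 and 3, against 13.9, 7.34 and 52.3 CPM in vehicle replicates 1, 2 and 3. Of these 8 rose with all libraries and 4 without MS275 replicate 1, beside 5.10% and 5.43% of all genes. In each of these lists MS275 replicate 1 had the highest sum. It also had the highest sum in the macrophage, lymphocyte, endothelial and fibroblast lists below, but not in the satellite glial, Schwann cell and sensory neuron lists.

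The 10 macrophage genes summed to 89.2, 74.5 and 75.2 CPM with MS275, against 75.5, 70.97 and 77.1 CPM with vehicle, and 0 passed; 5 B and T lymphocyte genes that could be tested summed to 6.54, 2.73 and 2.55 CPM, against 3.08, 3.11 and 3.83 CPM, and 0 passed, while Cd3e, Cd3d, Cd8a, Igll1 and Vpreb1 were at 0 to 12 reads and each at 0 in at least 1 library. The 8 satellite glial genes summed to 3549 to 3953 CPM with MS275 and 3492 to 3676 CPM with vehicle, with 1 called higher and 2 lower. The 8 Schwann cell genes summed to 5507 to 6189 CPM with MS275 and 5021 to 6093 CPM with vehicle, with 0 called higher and 0 lower. The 8 endothelial genes summed to 140.4 to 163 CPM with MS275 and 117 to 130.5 CPM with vehicle, with 3 called higher and 0 lower. The 6 fibroblast genes summed to 651 to 794 CPM with MS275 and 669 to 759 CPM with vehicle, with 1 called higher and 0 lower. The 10 sensory neuron genes summed to 11767 to 13177 CPM with MS275 and 11759 to 12300.4 CPM with vehicle, with 1 called higher and 0 lower. Beside the counts of each list, 5.10% of all genes were called higher and 5.89% lower, and 1 call in a list this short says little. The part of these other cells in the values of the mitosis genes was not tested.

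**Figure D4:**
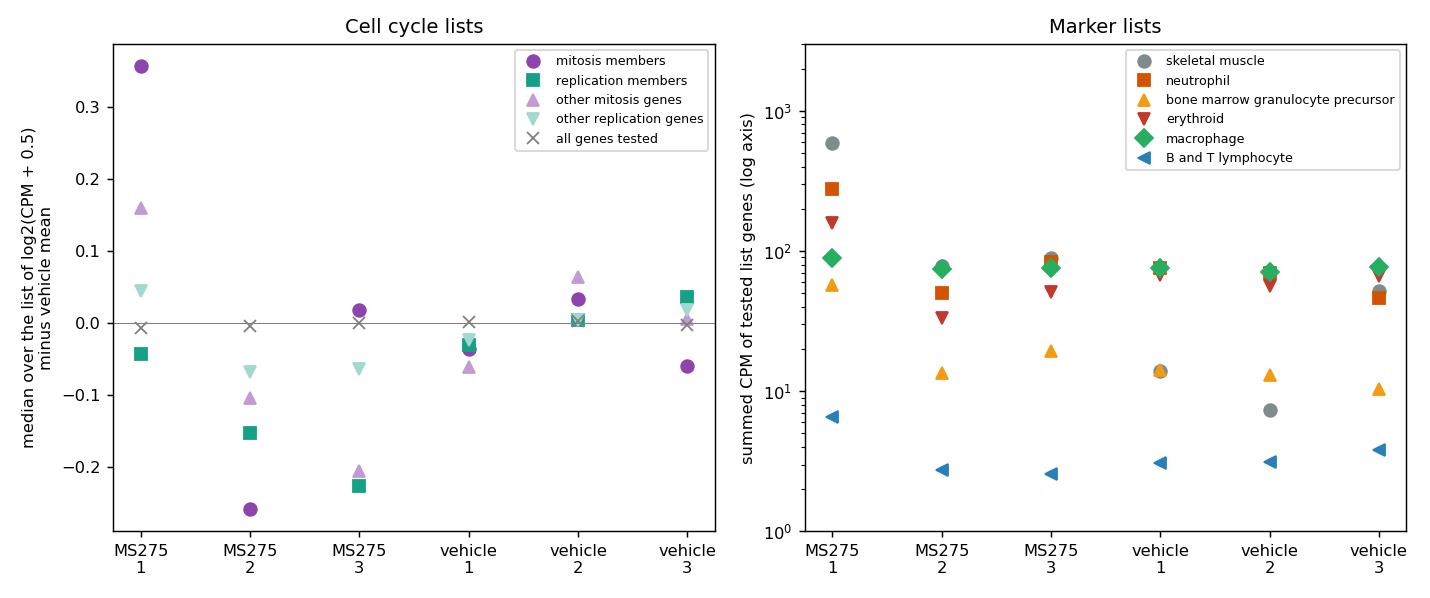
Left, the median over each cell cycle list of log2(CPM + 0.5) minus the vehicle mean in each library; right, the summed CPM of each marker list on a log axis. MS275 replicate 1 has the highest point of the mitosis genes (0.36) and of the neutrophil (277 CPM), granulocyte precursor (57.7 CPM), erythroid (159 CPM) and muscle (589 CPM) lists. It is also highest in the macrophage (89.2 CPM) and B and T lymphocyte (6.54 CPM) lists.

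The regulators around these genes were read from lists of related genes, where 8 of 136 tested genes passed (5.88%), 4 of them higher and 4 lower, beside 11.0% of all genes. Foxm1, the transcription factor that drives the mitosis wave, fell: it had 1.15, 1.09 and 1.42 CPM in MS275 replicates 1, 2 and 3, against 1.86, 2.36 and 2.25 CPM in vehicle replicates 1, 2 and 3. The Foxm1 means were 1.22 ± 0.175 CPM with MS275 and 2.15 ± 0.262 CPM with vehicle (SD, n = 3 each), with a log2 fold change of -0.83 (SE 0.18, adjusted p = 0.0231 in edgeR's quasi-likelihood test). E2f5, a repressive E2F that works with p130 and p107, had 5.66, 6.50 and 5.56 CPM in MS275 replicates 1, 2 and 3, against 8.42, 8.68 and 7.90 CPM in vehicle replicates 1, 2 and 3, and it fell as well. The E2f5 means were 5.91 ± 0.514 CPM with MS275 and 8.33 ± 0.400 CPM with vehicle (SD, n = 3 each), with a log2 fold change of -0.49 (SE 0.10, adjusted p = 0.0156 in edgeR's quasi-likelihood test). Among 20 E2F, RB and DREAM genes these were the 2 that passed, beside 11.0% of all genes. E2f1 (0.02, SE 0.05), Rb1 (-0.11, SE 0.05) and Mybl2, which encodes B-MYB (0.22, SE 0.40), did not pass, and the list's median was -0.07.

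Among 20 genes of the APC/C and SCF ubiquitin ligases, which destroy cyclins and their inhibitors, 0 rose and 2 fell, beside 5.10% and 5.89% of all genes. Fbxo5 (EMI1), an inhibitor of the anaphase-promoting complex and an E2F target, had 0.752, 0.382 and 0.290 CPM in MS275 replicates 1, 2 and 3, against 1.09, 1.05 and 1.24 CPM in vehicle replicates 1, 2 and 3. The Fbxo5 means were 0.475 ± 0.245 CPM with MS275 and 1.13 ± 0.0980 CPM with vehicle (SD, n = 3 each), with a log2 fold change of -1.21 (SE 0.33, adjusted p = 0.0439 in edgeR's quasi-likelihood test). It was read from 10 to 64 reads per library. Cdc23, a core subunit of that complex, had 28.2, 29.3 and 28.2 CPM in MS275 replicates 1, 2 and 3, against 33.7, 36.5 and 32.3 CPM in vehicle replicates 1, 2 and 3 (log2 fold change -0.26, SE 0.06, adjusted p = 0.0267). Of 36 other mitosis genes, 33 were tested, 1 rose and 0 fell, beside the same shares of all genes. The one that rose was Pttg1, securin, which holds the cohesin-cutting enzyme separase in check until anaphase: it had 27.98, 21.7 and 25.1 CPM in MS275 replicates 1, 2 and 3, against 16.7, 17.5 and 20.4 CPM in vehicle replicates 1, 2 and 3. The Pttg1 means were 24.9 ± 3.17 CPM with MS275 and 18.2 ± 1.97 CPM with vehicle (SD, n = 3 each), with a log2 fold change of 0.45 (SE 0.11, adjusted p = 0.0283 in edgeR's quasi-likelihood test). Of 46 other replication genes, 45 were tested and 0 passed with all libraries, 8 (17.8%) had an unadjusted p under 0.05, beside 28.5% of all genes, and the median was -0.04.

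Among the G1 regulators, of 10 G1 cyclin and kinase genes 2 rose and 0 fell, beside 5.10% and 5.89% of all genes. Ccnd1, cyclin D1, the partner of CDK4 and CDK6, had 32.2, 37.6 and 33.4 CPM in MS275 replicates 1, 2 and 3, against 29.1, 28.5 and 26.9 CPM in vehicle replicates 1, 2 and 3. Mnat1, the assembly factor of the CDK-activating kinase, had 28.1, 26.4 and 26.99 CPM in MS275 replicates 1, 2 and 3, against 22.4, 23.4 and 22.8 CPM in vehicle replicates 1, 2 and 3. Their log2 fold changes were 0.29 (SE 0.07, adjusted p = 0.0298) and 0.25 (SE 0.06, adjusted p = 0.0255). Of 8 CDK inhibitor genes 1 rose, beside 5.10% of all genes. It was Cdkn1a (p21), which had 125, 121 and 104 CPM in MS275 replicates 1, 2 and 3, against 94.3, 86.2 and 87.1 CPM in vehicle replicates 1, 2 and 3. The Cdkn1a means were 117 ± 11.5 CPM with MS275 and 89.2 ± 4.42 CPM with vehicle (SD, n = 3 each), with a log2 fold change of 0.39 (SE 0.07, adjusted p = 0.0117 in edgeR's quasi-likelihood test). Its groups did not overlap, and neither did those of the other 7 genes called here, beside 33.8% of all tested genes. These 8 were picked by a test on the same libraries, which favours separated groups, so this is no separate support.

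**Figure D5:**
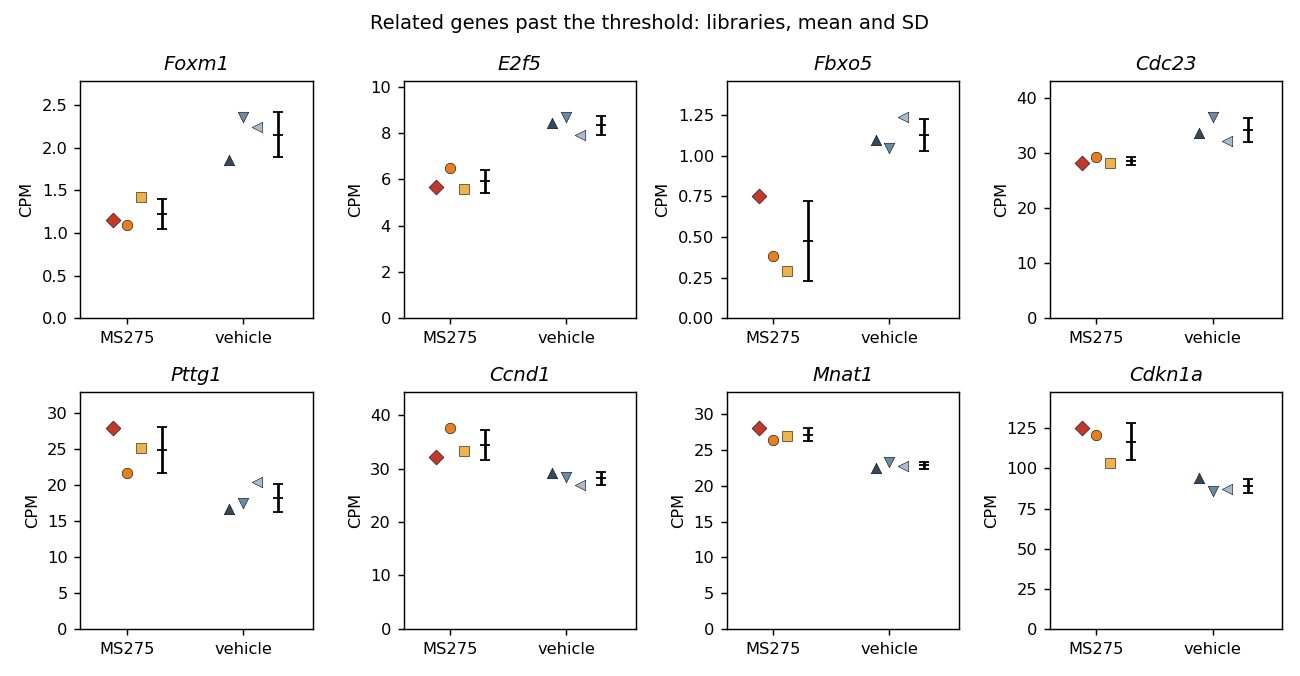
CPM of the 8 related genes past the threshold in the 3 MS275 libraries (left in each panel) and the 3 vehicle libraries (right); symbols are libraries, and the bar beside them is the mean with its SD (n = 3). In each panel all MS275 libraries lie on 1 side of all vehicle libraries, which picking genes by the test on these libraries favours.

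All 8 also passed without MS275 replicate 1, and Mad2l1 (-0.44), Pole (-0.59) and Ccnd3 (-0.27) were then called lower too. In that setting 11.0% of all genes were called. Leaving out other libraries ended calls, while over all genes the share called was 5.14% without MS275 replicate 3, 2.18%, 1.53% and 4.24% without vehicle replicates 1, 2 and 3, and 16.1% without MS275 replicate 2. Cdkn1a missed the threshold without vehicle replicate 2 (adjusted p = 0.0681); Foxm1 without vehicle replicate 1, 2 or 3 (0.0581 to 0.117); E2f5, Pttg1 and Cdc23 without MS275 replicate 3 or vehicle replicate 1 or 2 (0.0503 to 0.135); Mnat1 and Ccnd1 without MS275 replicate 3 or any vehicle library (0.0555 to 0.115); and Fbxo5 without MS275 replicate 2 or 3 or any vehicle library (0.0802 to 0.131). In those settings the log2 fold changes were 0.36 for Cdkn1a, -0.92 to -0.76 for Foxm1, -0.48 to -0.45 for E2f5, 0.40 to 0.45 for Pttg1 and -0.27 to -0.21 for Cdc23. They were 0.24 to 0.26 for Mnat1, 0.26 to 0.32 for Ccnd1 and -1.27 to -0.99 for Fbxo5. Foxm1, E2f5, Cdc23, Mnat1 and Ccnd1 overlap other annotated genes (Tex52, Rbis, Kif20a, Trmt5 among others, and LTO1).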

How the data were processed

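RNA libraries were poly(A)-selected, directional and sequenced as 75 bp read pairs, per the labels' protocols. The submitters' processing notes name the mm10 build, STAR 2.7.0, edgeR 3.24.3 and limma 3.38.3; neither they nor the labels give the counting program, its strand setting or the peak caller (not given in the sources used here). The authors deposited raw counts per gene symbol, 1 file per RNA library. They deposited 1 peak list per treatment, combined over replicates, with for each peak a score, a fold enrichment (a linear ratio), a −log10 q value and a summit offset. Rows naming no gene (5 per file) were left out.

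Counts were tested in edgeR 4.0.16 (R 4.3.3) with TMM scaling, filterByExpr and the quasi-likelihood test on all genes, adjusted by Benjamini-Hochberg; the biological coefficient of variation was 8.62%. DESeq2 1.42.0, limma voom 3.58.1, other scalings and filters, and each library left out were alternatives. SE is the absolute log2 fold change over the square root of F. Overlapping peaks were merged and matched to 1000 bp either side of each start. The RNA libraries are labelled biological triplicates. Named were all 34 members, the genes called in each list of related genes, 5 regulators (E2f1, Foxm1, Mybl2, Cdkn1a, Rb1), and the 3 most abundant genes of each marker list with any at 0; Elane and other listed marker names were added after their values were seen. The members and lists were chosen with earlier results of these data known. The fit was also run on simulated counts. Counts first drawn with a spread estimated gene by gene gave more false calls than the threshold allows. They were redrawn with a spread smoothed over expression level, so the simulation is no support for the calls here.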

Additional observations from a re-analysis of the deposited data

How the results depend on the processing

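No member was called with all libraries in the main test. Without normalisation factors 2 of 34 members were called (Mcm3 and Mcm4), beside 14.3% of all genes. With no filter beyond 1 count 1 was called, beside 9.32%, and with DESeq2 1, beside 13.8% (Mcm4 in both). At an adjusted p under 0.1 there were 2, beside 3229 genes (19.2%); leaving out single libraries gave 0 to 2 members and 261 to 2763 genes, beside 1849. Within-group deviations of the MS275 and vehicle libraries of the same number had correlations of 0.02, 0.11 and -0.06 for replicates 1, 2 and 3. Libraries of different numbers were not compared, so whether the numbers pair the samples was not tested. The replicate block called 1 member (Mcm4) and 2088 genes (12.4%), and gave Cdk1 -0.029, Rrm2 -0.078 and Nusap1 -0.080, with opposite sign. Without MS275 replicate 1, no filter beyond 1 count called 1 member. Over the libraries left out, the mitosis median ran -0.29 to 0.34, its difference from replication -0.086 to 0.47, and the log2 fold changes that crossed 0 were Aurkb -0.62 to 0.34, Bub1b -0.12 to 0.26, Ccna2 -0.49 to 0.52, Ccnb2 -0.45 to 0.42, Cdk1 -0.38 to 0.35, Cenpf -0.34 to 0.43, E2f1 -0.0031 to 0.071, Kif23 -0.014 to 0.37, Mki67 -0.13 to 0.97, Mybl2 -0.079 to 0.52, Nusap1 -0.69 to 0.37, Plk1 -0.034 to 0.64, Rrm2 -0.63 to 0.36, Top2a -0.24 to 1.04, Ube2c -0.87 to 0.67. Signs also differed without normalisation factors (Cdk1 -0.029, Nusap1 -0.013, E2f1 -0.020) and in limma voom (Ccnb2 -0.0055, Cdk1 -0.11, Rrm2 -0.13, Ube2c -0.12, Nusap1 -0.10). At a mean of at least 1 CPM, 24 members were left, 9 of them highest in MS275 replicate 1. A region covered at least 50% of the start window in 18 members (MS275 list) and 20 (vehicle list). The cause of these differences was not tested. Depth limits genes such as Aurkb, with as few as 3 reads.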
